A study of Mus musculus with 22 samples.

Results

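The comparison described here asked where deletion of E2a under a Vav Cre and deletion of E2a under an Lck Cre left different RNA levels in immature mouse T cells at 4 weeks of age. It used 12 of the 22 libraries of the series, all from sorted CD4+CD8+ (double-positive) thymocytes carrying CD45.1. Of 43430 genes in the deposited tables, 11233 were tested, namely those that reached 1 FPKM in 3 or more libraries of the Vav table, of the Lck table or of both. FPKM counts fragments per kilobase of gene and per 1e6 mapped reads.

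Each of the 4 groups held 3 libraries from untreated mice, and in every group, controls included, the labelled genotype carries floxed E2a alleles. The Vav controls and the Lck controls were both E2aF/F with no Cre named, each deposited in a table with its own knockouts. The Vav knockouts were VavCre E2aF/F and the Lck knockouts were LckCre E2aF/F. Vav regulatory elements drive expression in blood cells from the stem cell onwards, whereas Lck is turned on in developing T cells. Because the controls name no Cre, a consequence of the Cre and a consequence of the deletion cannot be told apart, and neither can the Cre driver and the table that holds its libraries. Replicates are numbered in the labels but not tied to animals. The tests therefore rest on the scatter among libraries, part of which may be technical.

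E2a is the common name of Tcf3, which encodes the E proteins E12 and E47. E proteins are basic helix-loop-helix factors that bind E-box motifs as dimers, often with the related HEB (Tcf12), and Id proteins bind them and keep them off DNA. In the thymus they are known for promoting T lineage entry, for holding cells at the pre-TCR and TCR checkpoints, and for restraining proliferation and leukaemia, a setting in which Notch1 and Myc are often active.

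Tcf3, the targeted gene, was at 7.47, 6.39 and 6.73 FPKM in the Vav controls and 1.36, 1.39 and 1.15 in the Vav knockouts. In the Lck libraries it was at 7.5, 8.22 and 6.98 in controls and 1.33, 1.2 and 1.2 in knockouts. Knockouts lay below controls in both tables, and the levels of the 2 knockout groups overlapped. The Vav effect, meaning knockout minus control on the log2(FPKM + 1) scale, was -1.77 and the Lck effect -1.93. Their difference, Vav effect minus Lck effect, was 0.16 (95% interval -0.08 to 0.39, limma adjusted p = 0.511). The gene-level value does not show which exons remained.

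The double-positive thymocyte markers Cd4, Cd8a, Cd8b1, Rag1, Rag2, Cd3e and Ptcra were all at 1 FPKM or more in every group. The depth implied by the smallest values was 31.3 to 37.6 M reads (M, 1e6) for the Vav libraries, 14.0 to 16.4 M for 5 Lck libraries and 5.43 M for Lck knockout replicate 2. The 10 most abundant genes took 16.6% of the FPKM sum in Lck knockout replicate 2 and 14.2% in Lck knockout replicate 3, against 7.65% to 11.3% in the other 10 libraries. Xist and Ddx3y levels marked 1 control and 1 knockout library of the Vav table as male and the others as female, and every Lck library as male except knockout replicate 3. No pair of libraries held identical values.

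The deletions had effects of very different extent. In a single fit over the 12 libraries, the Vav effect was called for 1142 genes higher (10.2% of those tested) and 1017 lower (9.05%), whereas the Lck effect was called for 27 higher (0.24%) and 88 lower (0.783%), at a Benjamini-Hochberg adjusted p under 0.05. Tested directly, the Vav effect differed from the Lck effect for 462 genes (4.11%): it was higher for 251 (2.23%) and lower for 211 (1.88%). Differences of 1 or more on the log2 scale were called for 95 higher and 55 lower genes (1.34%). Of the called genes, 62 higher and 2 lower ones passed the expression filter in the Vav table only and 1 and 15 in the Lck table only, where the filter itself favours one direction, and 174 were called each way when genes had to pass in both. Leaving out 1 library at a time gave 145 (without Vav knockout replicate 3) to 240 higher and 109 (without Vav control replicate 2) to 279 lower genes (both highest values without Vav knockout replicate 2). Without Lck knockout replicates 2 and 3, the libraries with the large share of abundant genes, 63 genes were called higher and 44 lower, in a fit whose only remaining Lck knockout is assumed to vary like the other groups.

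Most called differences came with a called Vav effect and no called Lck effect. Of the 251 higher genes, 232 had a called Vav effect and no called Lck effect, and of the 211 lower genes 188 did. Both effects were called in the same direction for 6 higher and 11 lower genes, in opposite directions for 3 and 1, and the Lck effect alone for 5 and 4. For the remaining 5 higher and 7 lower genes neither effect was called by itself. A missed call does not show that Lck had no effect on these genes, and several of them, such as Dhrs3, Itgb7, Car2 and Il2ra, had Lck knockouts wholly on the same side of their controls as the Vav knockouts.

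**Figure D1:**
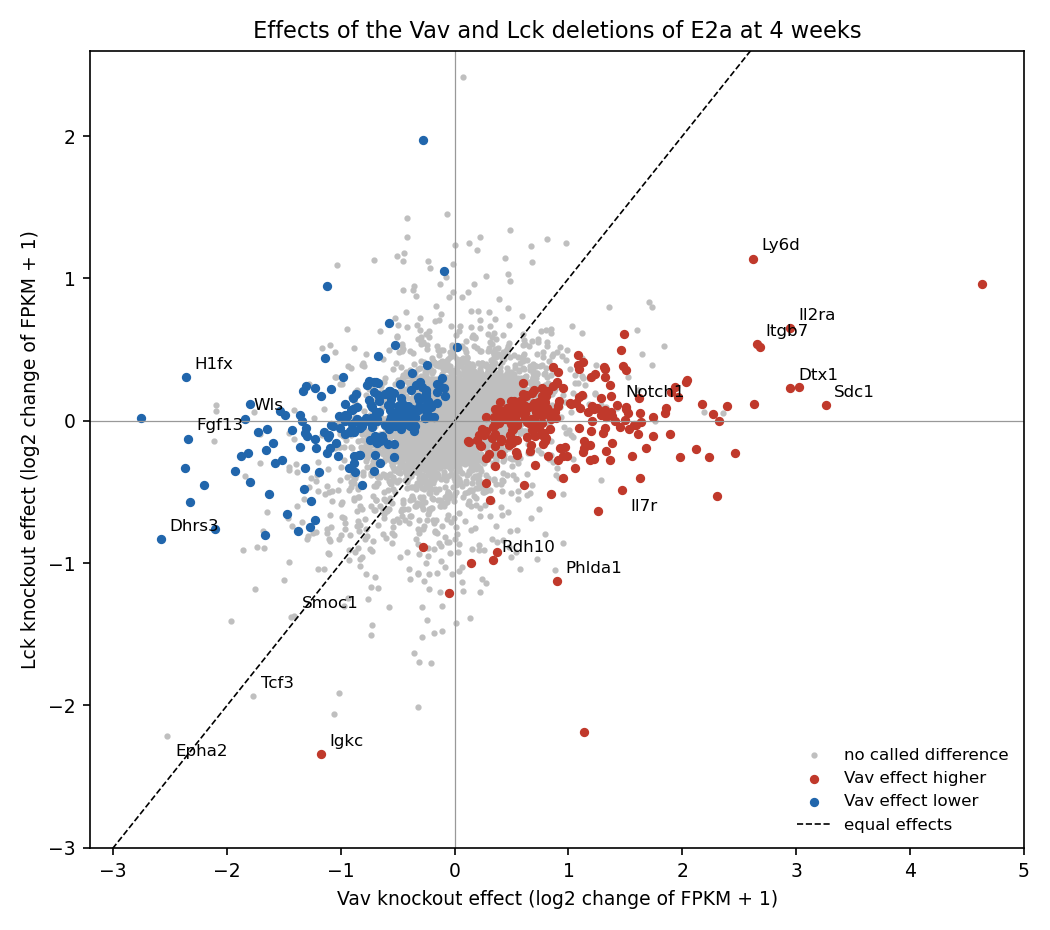
Vav effect (horizontal axis) and Lck effect (vertical axis) of each tested gene, both as log2 change of FPKM + 1 in the fit over 12 libraries. Red points are the 251 genes with a called higher Vav effect and blue points the 211 with a called lower one, and the dashed line marks equal effects. Most coloured points lie along the horizontal axis, while Tcf3, Epha2 and Smoc1 lie near the dashed line.

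Beneath the gap in called genes, the effects leaned the same way. The Lck effect was above 0 for 81.1% of the 1142 genes whose Vav effect was called higher, against 55.8% of all tested genes, and below 0 for 72.7% of the 1017 called lower. Its median was 0.11 where the Vav median was 0.43, and -0.09 where the Vav median was -0.42. Across all tested genes, which are not independent replicates, the effects correlated with r = 0.317. They share no libraries.

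Both effects were called in the same direction for 84 genes, 17 higher and 67 lower, and for 67 of the 84 no difference was called. The Vav effect was the larger in 69 of the 84. The genes named in the next paragraph were picked after their values were seen, for the size or closeness of the effects.

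Epha2, an ephrin receptor kinase, had the largest fall of this shared group after averaging the effects. It was at 17.2, 17.4 and 17.3 FPKM in the Vav controls and 1.61, 1.6 and 3.69 in the knockouts, and at 15.3, 16 and 14.1 and 2.39, 2.25 and 2.81 in the Lck groups. Knockouts lay far below controls in both tables, with effects of -2.53 and -2.21 and a difference of -0.32 (95% interval -0.90 to 0.26). Id3, which encodes an inhibitor of E proteins, was at 22, 21 and 20.7 and 12, 15.9 and 12.4 FPKM in the Vav controls and knockouts and at 23.5, 23.4 and 26.7 and 16.3, 15.7 and 14.5 in the Lck controls and knockouts. Both effects came to -0.63, and the interval of their difference ran from -0.30 to 0.29. Ets2, which encodes a transcription factor of the ETS family, fell by 0.58 and 0.56 (interval of the difference -0.35 to 0.30). Slc5a9, a sugar transporter gene, fell by 1.44 and 1.38 (-0.62 to 0.49), and Smoc1, which encodes a secreted calcium-binding protein, by 1.41 and 1.37 (-0.69 to 0.60). For Mprip, which encodes a myosin phosphatase partner, the interval was narrower, -0.15 to 0.25, around effects of -0.87 and -0.92. The pre-TCR alpha gene Ptcra fell by 1.21 and 0.78, and the difference of -0.43 was not called (adjusted p = 0.219, interval -0.82 to -0.05).

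Among E proteins and Id inhibitors, 1 of 6 tested members of a list of 7 had a called difference, against 4.11% of all tested genes. Id1, an Id inhibitor gene, was at 0.602, 0.632 and 0.79 FPKM in the Vav controls and 1.98, 1.86 and 1.57 in the knockouts, while the Lck libraries spanned 0.755 to 0.954 across both groups. Id1 was higher in every Vav knockout, by 0.74, and the difference of effects was 0.79 (SE 0.12, adjusted p = 0.00649). It entered the test through the Vav table only. Id2, another inhibitor, had effects of 0.54 and -0.41 with an adjusted p of 0.0545 for the difference. The other E protein genes, Tcf12 and Tcf4, had differences of 0.15 and -0.32 with adjusted p of 0.601 and 0.146.

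Notch1 and the Notch-responsive genes Dtx1 and Il2ra rose with the Vav deletion, and none of them had a called Lck effect. Notch receptors are cleaved on ligand binding and carry the signal to the nucleus, and their output normally falls as thymocytes reach the double-positive stage. Of 14 listed receptors, ligands and targets, 8 were tested and 3 were called higher, none lower, against 2.23% of all tested genes called higher. The median difference was 0.54 against -0.02 for all tested genes. The receptor gene Notch1 was at 16.2, 15.2 and 16.2 FPKM in Vav controls and 36.1, 59.4 and 40.6 in Vav knockouts, and at 12.1, 10.6 and 10.6 and 12.4, 11.3 and 12.3 in the Lck groups. Every Vav knockout was above every other library, and the Lck groups overlapped. The difference was 1.32 (SE 0.20, adjusted p = 0.00604).

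The Notch target Dtx1, which encodes the ubiquitin ligase Deltex1, was at 1.07, 1.59 and 1.47 FPKM in Vav controls and 23, 20.8 and 10.7 in Vav knockouts. Lck controls had 0.824, 0.742 and 0.566 and Lck knockouts 1.53, 0.818 and 0.739, overlapping groups near the Vav control level. The difference of 2.72 (SE 0.34, adjusted p = 0.00225) was called in every fit with 1 library left out and also without Lck knockout replicates 2 and 3 (adjusted p = 0.0435). The calls of Notch1 and Il2ra held with any 1 library left out but were lost without those 2 (adjusted p = 0.0729 and 0.067). Dtx1 passed the expression filter in the Vav table only, so its call adds no support to the count for the list. Il2ra, which encodes CD25, a receptor chain that marks the preceding double-negative stage and is also a Notch target, was at 2.13, 1.9 and 1.84 and 30.9, 24.7 and 13.5 in the Vav groups. In the Lck groups it was at 3.12, 2.52 and 2.07 and 5.38, 3.97 and 4.47, so that Lck knockouts also lay above their controls, with an uncalled Lck effect of 0.65. The difference was 2.30 (SE 0.34, adjusted p = 0.00497). Notch3 had effects of 1.23 and 0.19, but the difference missed the call (adjusted p = 0.0986), as did that of Igf1r, at -0.67 (adjusted p = 0.0645).

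Genes of mature T cells and of exit from the thymus formed the next group. All 15 tested members, of 17 listed, had a difference above 0, against 46.2% of all tested genes, with a median of 0.5. Of the 15, 2 passed the expression filter in one table only, which can favour one direction. Of them 5 were called higher, against 2.23% of all tested genes, with Il7r, Gimap3, Gimap4 and S1pr1 among the 5. Il7r encodes the receptor for interleukin 7, a survival signal that is normally low in double-positive cells. It was at 0.539, 0.553 and 0.474 FPKM in Vav controls and 3, 3.72 and 2.94 in Vav knockouts, and at 1.85, 1.79 and 1.59 in Lck controls and 1.14, 0.852 and 0.882 in Lck knockouts. The knockouts lay wholly above their controls in one table and wholly below them in the other. Effects were 1.47 (adjusted p = 7.05e-06) and -0.49 (adjusted p = 0.0382), and the difference was 1.96 (SE 0.13, adjusted p = 5.94e-05). The control groups themselves differed here, with every Lck control above every Vav control.

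Gimap3, a small GTPase gene of lymphocyte survival, was at 2.65, 2.8 and 2.12 FPKM in Vav controls and 12.2, 8.22 and 10.8 in knockouts, and at 6.69, 5.95 and 5.95 and 6.66, 5.23 and 4.21 in the Lck groups. Lck controls again lay above Vav controls, and the difference was 1.87 (SE 0.22, adjusted p = 0.0016). Its relative Gimap4 differed by 1.36 (SE 0.22, adjusted p = 0.00731). S1pr1, the receptor through which mature thymocytes leave, was at 0.135, 0.177 and 0.344 and 1.69, 1.37 and 1.19 in the Vav groups and 1.04, 0.708 and 0.383 and 0.403, 0.482 and 0.391 in the Lck groups. Its Vav knockouts were the highest libraries, and the difference was 1.23 (adjusted p = 0.00877). It was tested only because its Vav knockouts reached 1 FPKM. Its value therefore adds no support to the list's count of calls, count of signs or median. Klf2 and Runx3, transcription factor genes of mature T cells, had differences of 1.21 and 0.85 that were not called (adjusted p = 0.0538 and 0.0584). Beside these values, Ccr7, a chemokine receptor gene that marks mature single-positive cells, was at 2.33, 2.28 and 2.15 FPKM in Vav controls and 4.66, 3.57 and 3.98 in Vav knockouts. In the Lck groups, which overlapped, it was at 4.24, 2.82 and 2.17 in controls and 3.99, 2.21 and 3.16 in knockouts. In bulk RNA, more cells of a type and more RNA per cell cannot be told apart, and the part of mature cells in these differences was not tested.

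Cytokine receptors and their SOCS feedback inhibitors gave 3 called higher of 14 tested (19 listed), Il7r among them, against 2.23% of all tested genes. Socs3, which encodes an inhibitor of cytokine signalling, was at 3.93, 3.71 and 3.21 FPKM in Vav controls and 14.8, 15.1 and 10.3 in Vav knockouts, and at 4.92, 5.23 and 4.67 and 4.45, 3.05 and 3.12 in the Lck groups. Vav knockouts were higher than all other libraries and Lck knockouts lower than their controls, and the difference was 2.02 (SE 0.21, adjusted p = 0.001). Il2rb, the receptor chain shared by interleukins 2 and 15, was at 0.224, 0.227 and 0.291 and 1.24, 1.48 and 1.39 in the Vav groups and at or below 0.689 in every Lck library, with a difference of 1.12 (adjusted p = 0.00627). It too was tested only through its Vav knockouts, so its call adds no support to the count. The list median was 0.08.

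Several interferon-stimulated genes, which cells switch on against viruses, were called higher. Of 29 listed, 20 were tested. Of the tested genes 17 had a difference above 0 and 6 were called, none lower, against 46.2% and 2.23% of all tested genes. Medians were 0.47 for the Vav effect and -0.04 for the Lck effect. Ifi27l2a was at 3.67, 3.04 and 4.32 FPKM in Vav controls and 11.8, 9.5 and 9.21 in Vav knockouts, and at 7.38, 6.35 and 6.78 and 6.05, 2.76 and 3.84 in Lck controls and knockouts. Its groups moved apart in opposite directions, although only the Vav effect of 1.26 was called, and the difference was 1.89 (SE 0.28, adjusted p = 0.00497). The antiviral genes Rtp4 and Zbp1 differed by 1.49 and 0.57, and Usp18, which encodes a protease that removes ISG15 from proteins and dampens interferon signalling, by 0.84. Irf9, which encodes a subunit of the factor that switches these genes on, differed by 0.76 (adjusted p = 0.00497). Stat2, which encodes another subunit, had no called difference, at -0.08 (adjusted p = 0.675), and Isg15 missed the call at 1.10 (adjusted p = 0.107). Zbp1 had an uncalled Lck effect of 0.34, and its difference was lost in 6 of the 12 fits with 1 library left out, those without Vav control replicates 2 or 3, Vav knockout replicate 3, Lck control replicates 1 or 2 or Lck knockout replicate 3 (adjusted p up to 0.061).

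Ribosome biogenesis genes and other MYC targets had small differences of one sign. Of the 28 listed and tested, all 28 had a difference above 0, with a median of 0.33, and 3 were called higher. The list holds Myc itself, which is 1 of the 3. Over all tested genes 46.2% were above 0 and 2.23% called higher. The Vav effect was called higher for 26 of the 28 and the Lck effect for none, against 10.2% and 0.24% of all tested genes. The median effects were 0.49 and 0.13. Myc, the transcription factor that drives this program, was at 0.957, 1.09 and 0.937 FPKM in Vav controls, 3.56, 6.49 and 4.34 in Vav knockouts, 1.16, 0.794 and 0.692 in Lck controls and 1.76, 1.26 and 1.2 in Lck knockouts. It was above its controls in both tables, with effects of 1.51 and 0.35, and the difference was 1.15 (SE 0.24, adjusted p = 0.0236). That call was lost in 6 of the 12 fits with 1 library left out, those without any 1 of the Vav controls, Lck control replicate 1 or Lck knockout replicates 2 or 3 (adjusted p up to 0.0646). Srm, the spermidine synthase gene, differed by 0.73 (adjusted p = 0.0475) and was called in only 1 such fit, that without Vav knockout replicate 1 (adjusted p up to 0.11 in the others). Bop1, a ribosomal RNA processing gene, differed by 0.57 (adjusted p = 0.02), with the call lost without Vav knockout replicate 3 or Lck control replicates 1 or 3 (adjusted p up to 0.0543). With the level of chromosome 15 removed from each library none of the 28 was called, Myc and Bop1 lying on that chromosome, while all 28 stayed above 0. Among genes not called, Ncl, Fbl and Npm1 of the nucleolus had differences of 0.30, 0.53 and 0.30.

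Cell cycle genes did not follow that direction. Of 35 tested, 9 had a difference above 0, against 46.2% of all tested genes, and the median was -0.11. The median Vav effect was 0.07 and the median Lck effect 0.18. Ccna2, which encodes cyclin A2, was the only called member, and it was lower, against 1.88% of all tested genes called lower. Its levels were 38.8, 45.9 and 46.2 and 39.3, 34.8 and 35.3 FPKM in the Vav groups and 35.7, 38.4 and 38.2 and 41, 43.3 and 45 in the Lck groups. The Vav effect of -0.25 was called (adjusted p = 0.038), although the Vav groups overlapped, and the Lck effect of 0.20 was not (adjusted p = 0.301), although every Lck knockout lay above the Lck controls. The difference was -0.45 (adjusted p = 0.0405). This call held in 3 of the 12 fits with 1 library left out, those without Vav control 1, Vav knockout 1 or Lck knockout 1 (adjusted p up to 0.106 in the others). The 12 tested genes encoded by the mitochondrial genome all had differences above 0, with a median of 0.3 and no call (11 of 12 above 0 after quantile normalization). Glycolysis genes (15 tested, median -0.09), BCL2 family genes (12 tested, median 0.12) and G1 cyclins with CDK inhibitors (9 tested, median -0.08) had no call either. Of 25 tested T cell leukaemia genes 3 were called higher, against 2.23% of all tested genes, and these were Il7r, Notch1 and Myc already described. Of p53 targets (13 tested), only Sesn1 was called, higher by 0.27, against 2.23% of all tested genes called higher (adjusted p = 0.0483, lost unless Vav knockout replicate 2 or Lck control replicate 2 was the one left out, up to 0.124).

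**Figure D2:**
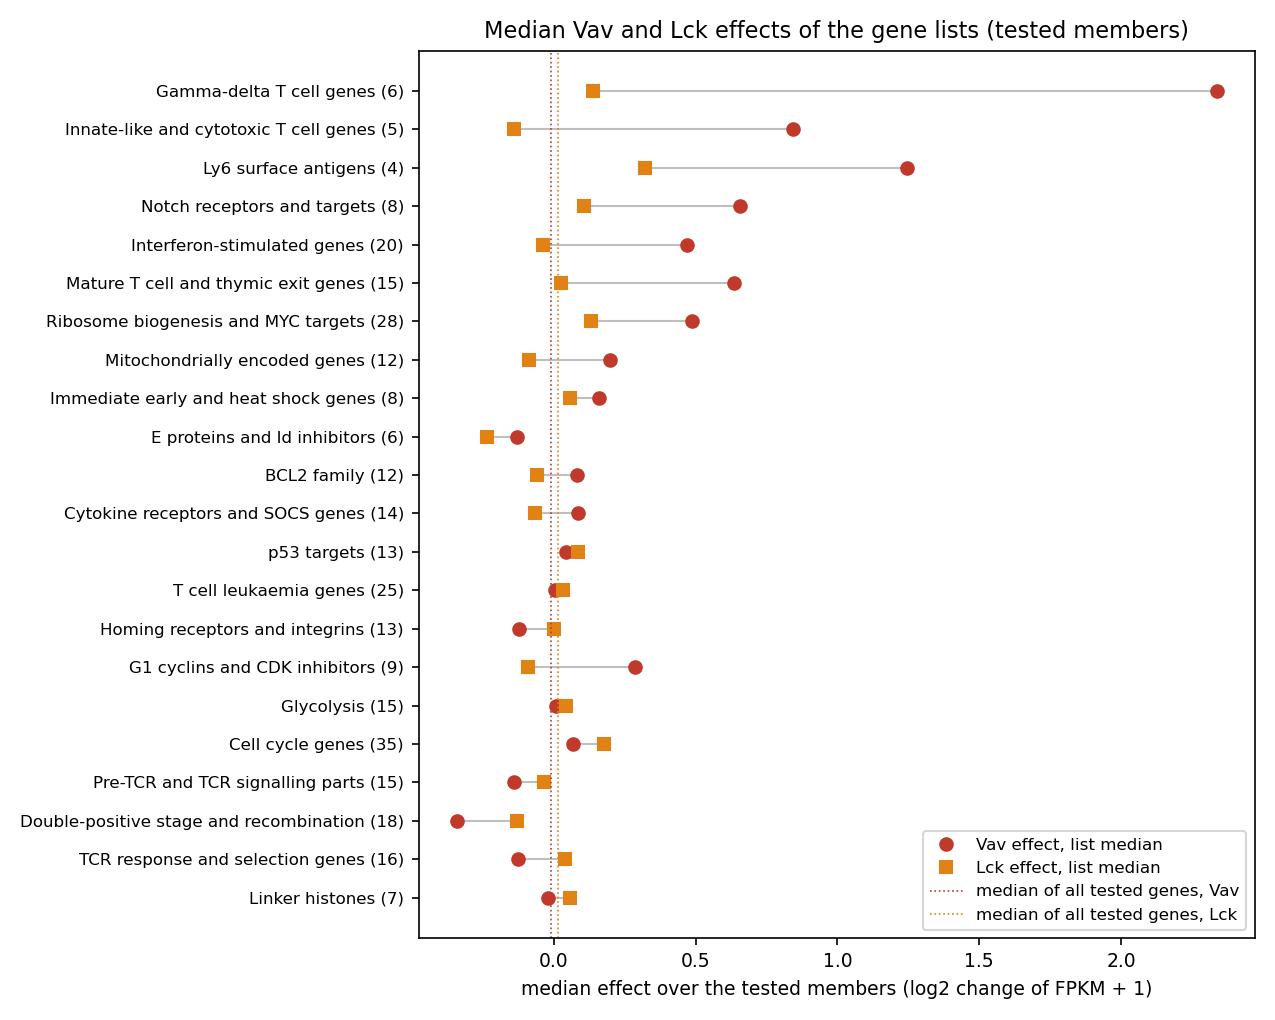
Median Vav effect (circles) and Lck effect (squares) over the tested members of each gene list with at least 4 of them, as log2 change of FPKM + 1, with the number tested in parentheses. Dotted lines are the medians of all tested genes. The gap is widest for gamma-delta T cell genes, a list in which 4 of the 6 tested members passed the expression filter in one table only. Notch, interferon and mature T cell lists have medians of about 0.5 to 0.7 for the Vav effect and between -0.04 and 0.11 for the Lck effect.

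Sdc1 and Itgb7, of the homing receptor and integrin list, were among the 12 largest called higher differences. Sdc1 (chr12:8771323-8793715 in mm10), which encodes the heparan sulfate proteoglycan syndecan-1, was at 0.185, 0.247 and 0.303 FPKM in Vav controls and 7.48, 16.7 and 10.3 in Vav knockouts. All 6 Lck libraries lay between 0.176 and 0.474, near the Vav controls. The difference of 3.15 (SE 0.29, adjusted p = 0.000602) was the largest positive one among the protein-coding genes named here. Itgb7, the beta 7 integrin chain of gut homing, was at 3.22, 4.23 and 3.99 and 24.8, 31.4 and 32.3 in the Vav groups and 5.06, 4.79 and 4.45 and 7.83, 7.81 and 6.54 in the Lck groups. Its knockouts were above their controls in both tables, by 2.66 and 0.54, and the difference was 2.12 (SE 0.16, adjusted p = 0.000101). The homing list as a whole had 2 called higher of 13 tested, Sdc1 and Itgb7, against 2.23% of all tested genes. Its median changed sign with the scaling. Sdc1 passed the expression filter through the Vav table only, so its call adds no support to that count.

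Ly6d, which encodes a GPI-anchored antigen known as a lymphoid progenitor marker, was the gene of highest level among those that rose in both models. It was at 89, 68.4 and 77.4 FPKM in Vav controls and 549, 451 and 455 in Vav knockouts, and at 63.8, 69 and 105 and 160, 186 and 169 in the Lck groups. Knockouts exceeded controls in both tables, by 2.62 and 1.14, and the difference was 1.48 (SE 0.24, adjusted p = 0.00796). Ly6c1 was called higher too, at 1.70 (adjusted p = 0.0363), but in none of the 9 fits with 1 library left out in which it could be tested (adjusted p up to 0.0848). It passed the expression filter through the Vav table only, where the knockouts were high, so its call adds no support. All 4 tested Ly6 genes lie on chromosome 15. Cd53, a tetraspanin gene, rose in both models, by 1.49 and 0.61, with a difference of 0.88 (adjusted p = 0.0169).

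Other large higher differences came from genes that were low in the other 3 groups. Sdc1, Dtx1, Fbln1, Cd163l1, Scara3, Myo1e and Nr1h5 passed the expression filter through the Vav table alone, so they had to be high there to be tested. Fbln1, an extracellular matrix gene, was at 0.546, 0.77 and 0.78 FPKM in Vav controls and 8.21, 12.9 and 8.05 in Vav knockouts, and at or below 0.567 in the Lck libraries (difference 2.51, SE 0.22, adjusted p = 0.00037). Myo1e, which encodes an unconventional myosin, was at 0.0178, 0.103 and 0.108 and 3.79, 5.2 and 2.83 in the Vav groups and at or below 0.186 in the Lck libraries (difference 2.05, adjusted p = 0.00101). Foxb1, a forkhead factor gene, was at 1.63, 1.06 and 0.537 and 11.1, 11.4 and 4.71 in the Vav groups and between 0.86 and 1.74 in the Lck libraries (difference 2.48, adjusted p = 0.00796). In all of these the Vav knockouts stood alone, and over all tested genes the Vav groups did not overlap for 37.3% and the Lck groups for 20%. Nr1h5, a nuclear receptor gene, differed by 1.99 (adjusted p = 0.0016). Scara3, a scavenger receptor gene, reached 3.22, 13.4 and 3.17 in the Vav knockouts, where replicate 2 was far above the others, and its call (difference 2.22, adjusted p = 0.0457) was lost in each of the 9 fits with 1 library left out in which it was tested (adjusted p up to 0.101).

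Gamma-delta T cell genes had the highest list median, 2.31 over 6 tested of 12 listed. Of these 4 were called higher, against 2.23% of all tested genes. Tcrg-C2, a gamma chain constant segment, was at 1.63, 2.02 and 1.86 FPKM in Vav controls and 14.7, 26.7 and 27.1 in Vav knockouts, and at 5, 3.17 and 1.36 and 5.71, 2.17 and 3.53 in the Lck groups (difference 2.79, SE 0.51, adjusted p = 0.0132). Tcrg-V1 and Tcrg-C4 differed by 2.69 and 1.75, with calls lost in 9 of 9 and 5 of 9 fits with 1 library left out. Losses for Tcrg-C4 came without Vav control replicates 1 or 2, Lck control replicates 1 or 2 or Lck knockout replicate 3 (adjusted p up to 0.0613, and up to 0.0844 for Tcrg-V1). Cd163l1, a scavenger receptor gene of gamma-delta cells, was at 1.91, 7 and 4.83 in Vav knockouts and at or below 0.125 in the Lck libraries (difference 2.32, adjusted p = 0.01). Gamma segments resemble each other, so their separate values are uncertain, and 4 of the 6 tested members passed the expression filter in one table only. Tcrg-V1, Tcrg-C4 and Cd163l1 were tested only through the Vav table, where the knockouts were high. Their values add no support to the count or the median of the list. One library stood out: Tcrg-C1 was at 7.36, 41.7 and 4.66 FPKM in the Vav knockouts. The summed level of the gamma-delta markers Tcrg-C1, Sox13 and Il23r was 1.32 to 2.01 in Vav controls, 5.23 to 42.0 in Vav knockouts and at most 2.59 in the Lck libraries, with Il23r at or near 0 throughout. Whether other cells of this type were present was not tested.

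Genes with a lower Vav than Lck effect were led by Fgf13, H1fx and other genes that fell in the Vav knockouts and had no called Lck effect. Fgf13 (chrX in mm10), which encodes a fibroblast growth factor homologue that stays inside the cell, was at 4.24, 4.68 and 4.43 FPKM in Vav controls and 0.143, 0.0195 and 0.0595 in Vav knockouts. The Lck controls had 3.73, 3.52 and 3.23 and the Lck knockouts 3.03, 3.28 and 3.03. Near loss in every Vav knockout stood against overlapping Lck groups, and the difference was -2.22 (SE 0.10, adjusted p = 3.75e-06). H1fx, a linker histone gene, was at 15.9, 11.8 and 10.7 and 3.13, 1.08 and 1.18 in the Vav groups and 18.2, 25.1 and 14.7 and 17.6, 28.8 and 25.8 in the Lck groups, a difference of -2.67 (SE 0.41, adjusted p = 0.00592). Another linker histone gene, H1f0, differed by -1.23 (adjusted p = 0.0322), with the call lost in 7 of the 12 fits with 1 library left out and kept without Vav control replicates 1 or 3, Vav knockout replicates 1 or 2 or Lck knockout replicate 1 (adjusted p up to 0.0769). The other 5 of 7 tested linker histones were not called, and the list median was -0.27. Over all tested genes 1.88% were called lower.

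Wls, which encodes the carrier that brings Wnt proteins to the cell surface, was at 24.6, 25.8 and 24.3 FPKM in Vav controls and 8.28, 3.73 and 7.53 in Vav knockouts, and at 25.2, 26.7 and 24.7 and 24.9, 26.9 and 25.6 in the Lck groups. The Lck groups overlapped fully, and the difference was -1.86 (SE 0.27, adjusted p = 0.0051). Vav knockout replicate 2 was the lowest library for Wls, and likewise for Fgf13, H1fx, Dhrs3, Car2, Arap2 and Rnf130. Laptm4b, a lysosomal membrane gene on chromosome 15, was at 6.75, 6.55 and 6.12 and 0.811, 1.51 and 1.2 in the Vav groups and between 6.13 and 9.75 in the Lck libraries (difference -1.91, adjusted p = 0.0016). Pdk2, a kinase gene that restrains pyruvate entry into the citric acid cycle, was at 5.27, 4.23 and 4.24 and 0.945, 0.507 and 0.61 in the Vav groups and between 4.56 and 5.2 in the Lck libraries (difference -1.65, adjusted p = 0.000283). Pde5a, a cyclic GMP phosphodiesterase gene, and Rnf130, a ubiquitin ligase gene, differed by -1.55 and -1.55 (adjusted p = 0.00234 and 0.00731). Arap2, which encodes a GTPase-activating protein, differed by -1.58 (adjusted p = 0.0399), and this call was lost without any 1 of the controls of either table or of the Lck knockouts (adjusted p up to 0.0912).

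For several genes the knockouts of both models lay below their controls, further with Vav. Dhrs3, which encodes an enzyme that turns retinaldehyde back into retinol, was at 16.9, 15.4 and 14.4 FPKM in Vav controls and 2.73, 0.784 and 2.2 in Vav knockouts, and at 18.6, 18.9 and 18.7 and 11.1, 10.2 and 9.02 in the Lck groups. Knockouts lay below controls in both tables, but only the Vav effect of -2.58 was called, and the difference was -1.75 (SE 0.30, adjusted p = 0.0104). Car2, a carbonic anhydrase gene, had the same layout, with effects of -2.33 and -0.57 and a difference of -1.76 (adjusted p = 0.00408). Called in both models were Adgrg1, an adhesion G protein-coupled receptor gene (-1.67 and -0.80), Arl5c, a small GTPase gene (-1.47 and -0.66), and S100a11, which encodes a calcium-binding protein (-1.63 and -0.51). Adgrg1 was at 18.8, 17 and 18.1 and 4.8, 5.67 and 4.47 in the Vav groups and 16.1, 16.6 and 15.9 and 9.4, 9.01 and 8.2 in the Lck groups, so the Lck knockouts lay between. The differences were -0.86, -0.81 and -1.11 (adjusted p = 0.00194, 0.00194 and 0.00242).

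Genes of the double-positive stage and of receptor gene recombination had median effects below 0 in both tables. All 18 were tested, and 1 was called higher and 2 lower, against 2.23% and 1.88% of all tested genes. The median effects were -0.34 for Vav and -0.13 for Lck. Plxnd1, a semaphorin receptor gene of migrating thymocytes, fell by 1.26 and 0.57, with a difference of -0.70 (adjusted p = 0.0169, and 0.052 without Vav control replicate 3). Arpp21 fell by 0.54 and 0.25, and its difference of -0.28 (adjusted p = 0.0334) was kept only without Vav knockout replicates 2 or 3 or Lck control replicate 3 (adjusted p up to 0.0909 in the others). Aqp11, a water channel gene, was the called higher member, at 0.79 (adjusted p = 0.00649). The recombinase genes Rag1 and Rag2 and the coreceptor gene Cd4 had differences of -0.18, -0.34 and -0.30, none called. Among pre-TCR and TCR signalling parts (15 tested) the adhesion gene Cd2 alone was called, at 0.39 (adjusted p = 0.0357), kept only without Lck control replicate 2 or Lck knockout replicate 1 (adjusted p up to 0.0938 in the others). Over all tested genes 2.23% were called higher. Genes of the TCR response had 1 call of 16, Cd53, which was higher, against the same 2.23%. Cd5 and Egr1, whose levels follow TCR signal strength, were at -0.61 and -0.39 (adjusted p = 0.0967 and 0.501).

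A few genes moved in opposite directions or changed with Lck alone. Phlda1, which encodes a pleckstrin-homology domain protein, was at 9.91, 9.62 and 9.59 FPKM in Vav controls and 14, 28.1 and 17.3 in Vav knockouts, and at 9.31, 6.81 and 5.73 and 3.48, 2.45 and 2.36 in the Lck groups. Vav knockouts were all above and Lck knockouts all below their controls, with called effects of 0.90 and -1.13 and a difference of 2.03 (SE 0.32, adjusted p = 0.00674). Rdh10, which encodes the enzyme that makes retinaldehyde from retinol, was at 26.3, 24.7 and 22.4 and 30.9, 30.3 and 31.9 in the Vav groups and at 25, 23.5 and 21.1 and 14.4, 10.2 and 9.67 in the Lck groups. It fell in every Lck knockout, by 0.98, and stood above controls in every Vav knockout without a called effect (0.33), a difference of 1.31 (SE 0.17, adjusted p = 0.0027). Wnt8b, a Wnt ligand gene, was at 5.89, 4.26 and 3.73 and 6.91, 5.93 and 5.82 in the Vav groups, which overlapped, and at 8.25, 5.86 and 7.9 and 3.23, 3.73 and 3.16 in the Lck groups, which did not (difference 1.30, adjusted p = 0.00736). Gramd3 fell in the Lck knockouts, to 7.08, 4.34 and 4.02 from 12.7, 9.95 and 10.6 in Lck controls, and its difference of 1.15 (adjusted p = 0.0374) was kept only without Vav knockout replicate 1 or Lck knockout replicate 1 (adjusted p up to 0.0924 in the others).

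Other entries of this kind come with limits. The microRNA gene Mir7211 (chr10:94586137-94586199 in mm10) was at 0.93, 0.447 and 1.69 FPKM in Vav controls and 2.44, 4.08 and 3.56 in Vav knockouts, and at 5.11, 3.89 and 2.17 in Lck controls, and was listed at 0 in all Lck knockouts. RNA over this locus is not a measure of the mature microRNA, and no fold was formed against the group at 0. The uncharacterised gene 2900052L18Rik was below 1 FPKM in every Vav library, higher in Vav controls than knockouts, and at 0.933, 1.08 and 0.859 and 1.76, 2.41 and 2.32 in the Lck groups (difference -1.27, adjusted p = 0.00192). Igkc, the kappa light chain constant gene, fell to 0 or near it in both knockout groups, from 0.907, 1.57 and 1.74 in Vav controls and from 3.19, 4.93 and 5.28 in Lck controls, so that its difference of 1.17 (adjusted p = 0.0301) went with the higher starting level in the Lck table. It was lost without Vav control replicates 1 or 2, Vav knockout replicate 3 or Lck knockout replicates 1 or 2 (adjusted p up to 0.0758).

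**Figure D3:**
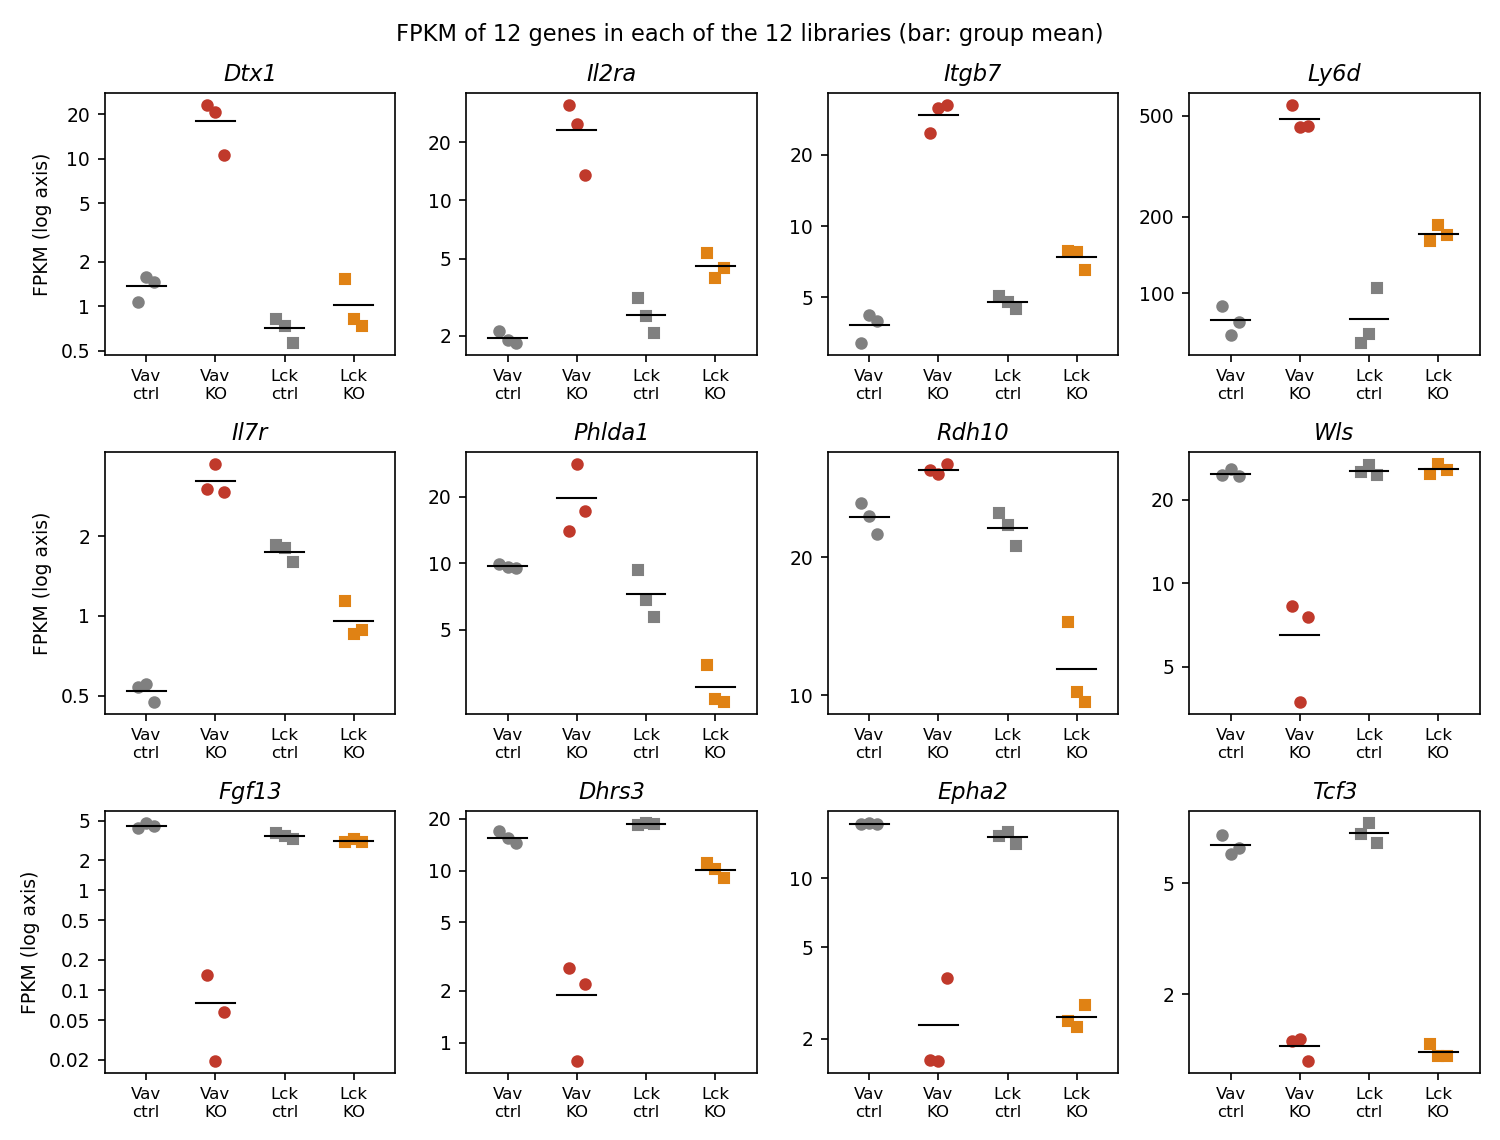
FPKM on a log axis of 12 genes in each of the 12 libraries, with controls in grey, Vav knockouts in red, Lck knockouts in orange and the group mean as a bar. Dtx1 and Il2ra are high in the Vav knockouts, Rdh10 is low in the Lck knockouts, Il7r and Phlda1 part in opposite directions, and Epha2 and Tcf3 are low in both knockout groups.

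Some listed markers of other blood and thymic cells had high levels and others were near 0. Ighm, the mu heavy chain constant gene of the B cell list, was at 161, 177 and 170 FPKM in Vav controls and 68.2, 137 and 76.8 in Vav knockouts, and at 179, 164 and 191 and 149, 159 and 162 in the Lck groups. Knockouts lay below controls in both tables, and the difference of -0.73 was not called (adjusted p = 0.209). Cd79a, another B cell receptor signalling chain gene, was between 0.513 and 1.08 FPKM in the 12 libraries, with overlapping groups in both tables. Pecam1, listed as a stromal marker, was at 9.21, 7.75 and 7.79 in Vav controls and 12.2, 11 and 13.1 in Vav knockouts, and at 8.45, 7.27 and 8.24 and 9.81, 10.4 and 9.74 in the Lck groups. Knockouts were above controls in both tables, and the difference of 0.21 was not called (adjusted p = 0.398). Epcam, another listed stromal marker, went the other way in the Vav groups. It was at 1.29, 1.23 and 1.27 in Vav controls and 0.317, 0.315 and 0.261 in Vav knockouts. In the Lck groups, which overlapped, it was at 1.3, 2.1 and 1.17 and 0.774, 1.61 and 0.323. Of the other B cell genes, Cd79b, which encodes a B cell receptor signalling chain, was at 6.47, 5.71 and 6.01 FPKM in Vav controls and 0.445, 0.208 and 0.459 in Vav knockouts, and at 5.77, 4.97 and 6.16 and 3.88, 3.4 and 5.72 in the Lck groups, which overlapped. The difference was -2.04 (SE 0.20, adjusted p = 0.000901), while the defining B cell markers Ms4a1, Pax5 and Ebf1 were at or below 0.0147 in every library. Itgam, a macrophage and granulocyte gene, was at 1.54, 1.93 and 1.29 in Vav knockouts and at or below 0.664 in all Lck libraries (difference 0.64, adjusted p = 0.0301, lost in each of 9 fits with 1 library left out, up to 0.0754), with Csf1r and Adgre1 at or near 0. Lyz2, of the same list, overlapped between groups in both tables and was highest, at 1.15, in Lck knockout replicate 2. C1qa was at most 0.31, in an Lck control, and S100a8 at most 0.575, in a Vav control. The class II gene H2-Ab1 differed by 1.15 (adjusted p = 0.0271, kept without Lck knockout replicate 1 and lost in the other 8 fits, up to 0.0668), with Itgax and Siglech at or near 0. H2-Aa and Cd74, of the same list, were at most 0.335 and 0.762, in an Lck control, and their Vav groups overlapped. Itgam and H2-Ab1 passed the expression filter through the Vav table only, where the knockouts were high, so their calls add no support. The part of such cells in the differences was not tested. Early progenitor markers summed to at most 0.339 FPKM in every library. Erythroid markers separated the tables, with sums of 3.45 to 9.26 in the Vav libraries and 0.28 to 1.92 in the Lck libraries.

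Chromosome 15 held an outsized share of the higher genes. It carries 430 of the tested genes (3.86%), and 67 of its genes were called higher and 4 lower. Called higher were 15.6% of its tested genes against 0.796% to 3.52% on the other autosomes and 0.304% on the X chromosome. Among genes named above, Itgb7, Il7r, Ly6d, Ly6c1, Fbln1, Myc, Il2rb and Bop1 lie there, and so do Laptm4b and H1f0, whose difference was negative. Earlier results of these data had pointed to this chromosome, so its rank is a description.

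The level of a chromosome in a library was taken as the median over its genes of the log2 value, relative to the other autosomes, after each gene was centred on its mean over the 6 libraries of its table. Levels can therefore be compared within a table and not between the tables, and the 2 control groups are not compared here. For chromosome 15, over 264 genes, it was -0.144, -0.146 and -0.139 in the Vav controls and 0.154, 0.123 and 0.179 in the Vav knockouts. In the Lck controls it was -0.0015, -0.0279 and -0.0125, and in the Lck knockouts 0.0114, 0.0211 and 0.000419. Every Vav knockout stood above every Vav control by far more than the Lck groups separated. The Vav effect was 0.29, the Lck effect 0.02 and the difference 0.27 (exact two-sided permutation test within tables over 400 arrangements, p = 0.1, adjusted over 19 autosomes 0.333). On chromosome 15 every Lck knockout also lay above every Lck control, by a small margin. With the Vav groups as labelled, any other arrangement of the Lck libraries would widen the difference, which raises this p. Chromosomes 14 and 6 had smaller differences, -0.08 and -0.06, and lower p (exact two-sided permutation test within tables, p = 0.04 and 0.025, each 0.333 adjusted). On several other autosomes a single Vav knockout library stood apart, such as replicate 2 on chromosome 10, at 0.105. With each library's chromosome 15 level removed from its genes, an alternative added after seeing the data, 186 genes were called higher and 196 lower, and 17 of the higher genes were on chromosome 15. Fbln1, Itgb7, Il7r, Ly6d and Il2rb were still called then, at 2.25, 1.85, 1.69, 1.21 and 0.85, whereas Myc (0.88, adjusted p = 0.0827), Ly6c1 (1.43, adjusted p = 0.0811) and Bop1 (0.3, adjusted p = 0.173) were not.

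**Figure D4:**
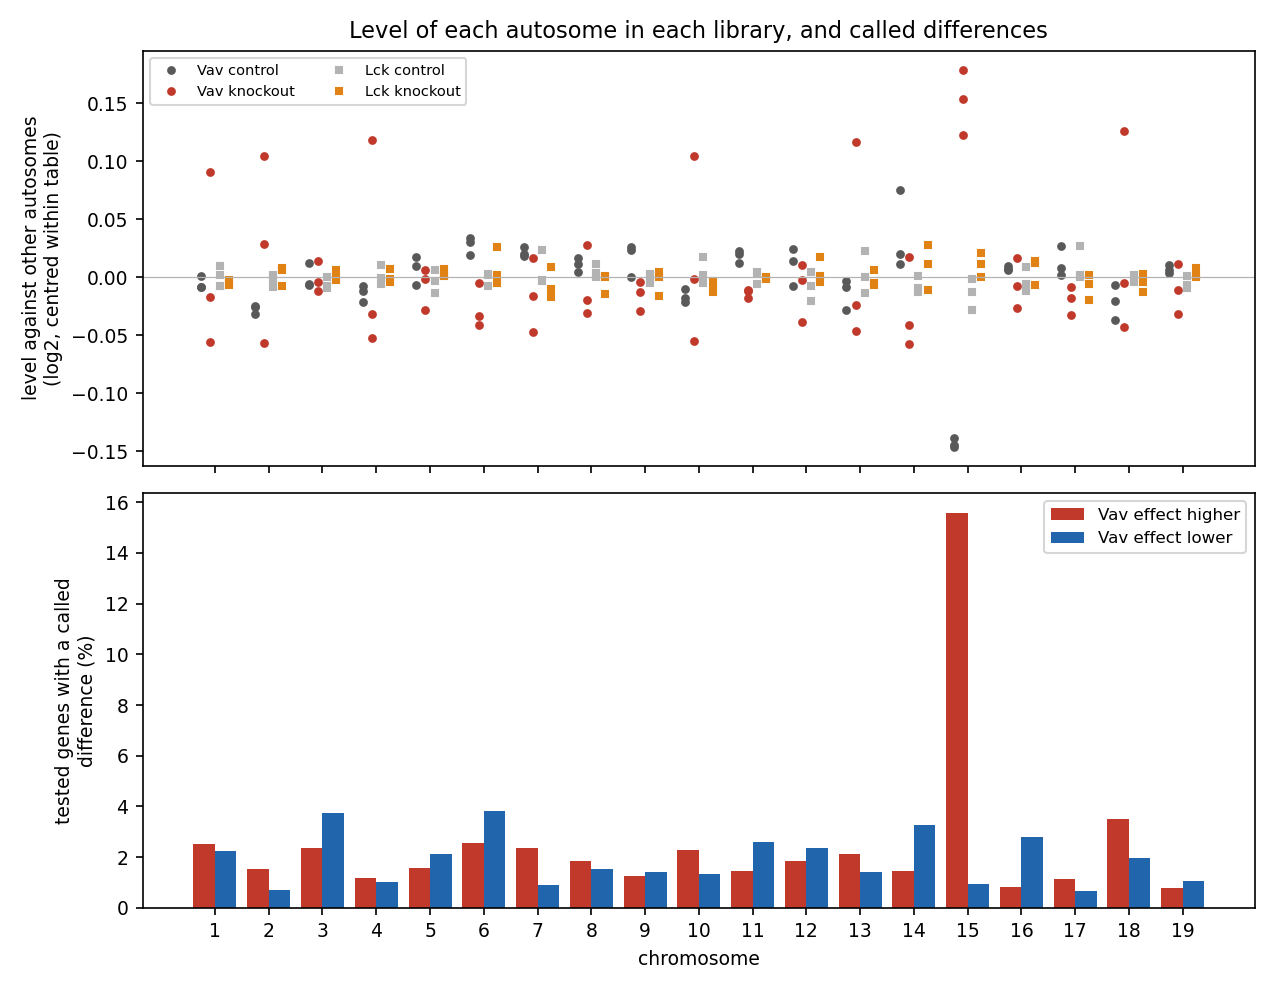
Upper panel, level of each autosome relative to the others (log2, median over its genes, each centred on the mean of its own table) in the 12 libraries, so that only libraries of 1 table can be compared. Lower panel, percent of each autosome's tested genes with a called higher (red) or lower (blue) Vav effect. On chromosome 15 the Vav controls sit near -0.14, the Vav knockouts between 0.12 and 0.18 and the Lck libraries near 0, and 15.6% of its genes were called higher.

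Rearranged receptor segments were also counted, with the limit that near copies share reads. Of 60 tested alpha variable segments 0 were called higher and 6 lower, of 15 beta variable segments 1 and 2, of 10 delta segments 1 and 2, and of 7 gamma segments 5 and 0. Over all tested genes 2.23% were called higher and 1.88% lower. The gamma segments Tcrg-V1 and Tcrg-C4 were tested only through the Vav table, where the knockouts were high, so their calls add no support to that count.

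Libraries from 8-week-old mice, which the tests above did not use, gave the Vav effect again under their own controls. A value was available for 448 of the 462 genes. The Vav effect at 8 weeks was above 0 for 232 of the 251 higher genes and below 0 for 180 of 197 lower genes with a value, where 47.5% of all 10909 genes were above 0. It was called for 98 of the 251 and 72 of the 197, against 4.32% and 4.72% of all genes. Dhrs3, Fgf13 and Sdc1 were called again, at -3.59, -2.04 and 3.40. Il7r was at 2.68 without a call (adjusted p = 0.134), and the interferon gene Ifi27l2a was at -0.25 (adjusted p = 0.584). No Lck libraries of that age enter here, so this concerns the Vav effect and not the difference.

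Promoter sequences of a few genes of each kind were searched for E-boxes. The RefSeq promoters on GRCm38.p6, 250 bases before to 50 after the start, are given 5′ to 3′ for the 3 largest higher genes, the 3 largest lower genes with an entry and the 2 largest falls called in both models with an entry, with E-boxes (CANNTG on either strand, the same letters on both) in capitals and the rest in lower case.
Sdc1 (chr12:8771146-8771445, plus strand): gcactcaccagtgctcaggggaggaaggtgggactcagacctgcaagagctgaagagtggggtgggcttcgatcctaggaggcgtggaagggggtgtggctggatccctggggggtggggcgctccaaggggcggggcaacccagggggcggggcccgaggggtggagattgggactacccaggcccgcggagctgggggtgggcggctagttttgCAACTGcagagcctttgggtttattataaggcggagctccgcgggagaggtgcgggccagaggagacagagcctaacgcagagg
Dtx1 (chr5:120711620-120711919, minus strand): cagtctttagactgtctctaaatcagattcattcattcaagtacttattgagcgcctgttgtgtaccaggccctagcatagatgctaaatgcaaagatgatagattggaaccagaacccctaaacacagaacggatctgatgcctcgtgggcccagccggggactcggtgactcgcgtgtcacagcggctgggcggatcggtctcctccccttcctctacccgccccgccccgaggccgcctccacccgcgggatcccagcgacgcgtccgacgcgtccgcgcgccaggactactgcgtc
Fbln1 (chr15:85205699-85205998, plus strand): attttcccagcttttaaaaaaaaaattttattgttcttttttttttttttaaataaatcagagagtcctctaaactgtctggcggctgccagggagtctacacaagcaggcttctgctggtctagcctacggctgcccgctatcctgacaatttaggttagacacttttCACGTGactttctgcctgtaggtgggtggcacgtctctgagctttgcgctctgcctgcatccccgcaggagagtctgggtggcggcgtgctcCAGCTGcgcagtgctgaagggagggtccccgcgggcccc
H1fx (chr6:87981433-87981732, minus strand): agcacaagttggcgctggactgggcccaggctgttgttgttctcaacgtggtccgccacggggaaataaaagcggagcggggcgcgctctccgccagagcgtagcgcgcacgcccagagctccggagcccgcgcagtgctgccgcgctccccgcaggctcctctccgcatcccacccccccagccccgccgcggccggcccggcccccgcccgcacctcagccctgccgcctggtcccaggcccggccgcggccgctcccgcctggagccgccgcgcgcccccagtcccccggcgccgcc
Fgf13 (chrX:59567299-59567598, minus strand): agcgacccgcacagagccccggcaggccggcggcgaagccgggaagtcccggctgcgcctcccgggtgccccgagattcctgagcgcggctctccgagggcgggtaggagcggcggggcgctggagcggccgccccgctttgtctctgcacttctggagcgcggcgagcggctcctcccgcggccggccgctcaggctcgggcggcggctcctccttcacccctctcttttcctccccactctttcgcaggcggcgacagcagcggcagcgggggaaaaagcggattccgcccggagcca
Wls (chr3:159839400-159839699, plus strand): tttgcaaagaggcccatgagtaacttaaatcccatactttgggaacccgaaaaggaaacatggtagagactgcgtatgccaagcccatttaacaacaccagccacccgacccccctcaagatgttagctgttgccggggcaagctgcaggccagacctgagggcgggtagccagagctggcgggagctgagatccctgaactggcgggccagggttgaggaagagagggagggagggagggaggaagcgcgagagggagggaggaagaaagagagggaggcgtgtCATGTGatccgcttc
Epha2 (chr4:141300971-141301270, plus strand): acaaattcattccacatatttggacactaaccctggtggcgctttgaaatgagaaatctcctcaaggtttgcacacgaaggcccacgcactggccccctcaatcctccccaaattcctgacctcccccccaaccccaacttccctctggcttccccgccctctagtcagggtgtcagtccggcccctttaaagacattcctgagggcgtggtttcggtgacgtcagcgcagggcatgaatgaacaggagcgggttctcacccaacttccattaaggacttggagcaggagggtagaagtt
Hif3a (chr7:17062378-17062677, minus strand): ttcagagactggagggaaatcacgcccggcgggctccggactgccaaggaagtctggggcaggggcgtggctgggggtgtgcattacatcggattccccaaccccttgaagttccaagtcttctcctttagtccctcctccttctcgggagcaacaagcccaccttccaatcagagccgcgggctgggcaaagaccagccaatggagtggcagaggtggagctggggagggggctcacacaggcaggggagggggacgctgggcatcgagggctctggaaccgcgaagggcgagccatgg
Sdc1 held 1 E-box, CAACTG at position -34, Fbln1 held CACGTG at -81 and CAGCTG at 12, and Wls held CATGTG at 36, counted from the start. The windows of Dtx1, H1fx (H1f10 in RefSeq), Fgf13, Epha2 and Hif3a held none of these letters. For Fgf13, Dtx1 and H1fx the RefSeq start lay 723, 258 and 155 bases from the annotated gene start, so other starts of these genes were not searched. At least 1 CANNTG was in 72.3% of 27025 RefSeq promoters of this length, CAGCTG in 16.2% and CACCTG or its reverse complement CAGGTG in 20.03%. Among 7643 promoters of tested genes, 61.5% held CANNTG. For the called genes as sets no share is given, because only 61.4% of the higher and 71.1% of the lower genes had an entry, under the 80% needed. A match here is a description of the letters, not of binding.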

How the data were processed

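Per the labels' protocols, RNA was purified with RNeasy mini kits and NuGEN Ovation Ultralow libraries were prepared from it. The values used are FPKM per gene as deposited by the authors, 1 table per model and age. Trimmomatic 0.33, STAR, HTSeq 0.6.1, DESeq2 and mm10 are named in the submitters' processing notes, without role or order. Gene lengths, annotation and strand setting are not given in the sources used here. From the FPKM values, log2(FPKM + 1) was fitted with limma 3.58.1 in R 4.3.3 (trended variances, 4 group means, 8 residual degrees of freedom), and the contrast (Vav knockout - Vav control) - (Lck knockout - Lck control) was tested over 11233 genes with Benjamini-Hochberg adjustment. The 8-week Vav effect came from a separate limma fit over the 8-week libraries, which include transplanted knockouts. Because the values are on that scale, changes of low genes are understated. The test was checked on simulated data. Of 43430 gene IDs, 42546 matched a GENCODE symbol, which also gave positions. Genes named are Tcf3, the 12 largest called differences each way (leaving out clones, pseudogenes, small RNAs and receptor segments), up to 5 called members of each list, and the 6 largest of each class of effects; a few that the rule names are not reported here. The members and lists were chosen with earlier results of these data known. Alternatives covered the pseudocount, filters, scaling, variances, a replicate block, inferred sex and left-out libraries. Where stated, depth was implied from the smallest steps between FPKM values and limits precision.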

Additional observations from a re-analysis of the deposited data

Results flagged for a closer look

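The differences picked out here are those in which the 2 deletions moved a gene in opposite called directions, or in which only the Lck effect was called, together with the level of a whole chromosome. Each was tested as the difference of the effects itself. Phlda1 (difference 2.03), Il7r (1.96) and the microRNA gene Mir7211 (3.32, a fitted value that depends on the 1 added to each FPKM because the Lck knockouts are listed at 0) rose with Vav and fell with Lck, while 2900052L18Rik (-1.27) did the reverse.

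The Lck effect alone was called for 9 genes. They include Rdh10 (1.31), Wnt8b (1.30) and Gramd3 (1.15, lost in 10 of the 12 fits with 1 library left out, adjusted p up to 0.0924), which fell with Lck, and Kcnk5 (-0.50), a potassium channel gene, and Brip1 (-0.41), a DNA helicase gene, which rose with it. The other 4 are the unnamed gene models Gm5682 (1.16), Gm3086 (0.61), Gm12208 (-1.15) and Gm26287 (-2.25). Calls of Gm5682, Gm12208 and Gm26287 were lost in 9, 10 and 10 of the 12 fits with 1 library left out. Gm3086 had means of 7.89 and 6.34 FPKM in Vav controls and knockouts and 12.7 and 6.45 in Lck controls and knockouts. Its control groups thus lay further apart than its knockout groups. Kcnk5 was at 2.77, 2.76 and 2.74 FPKM in Vav controls and 2.94, 2.74 and 2.74 in Vav knockouts, against 2.11, 2.31 and 2.68 in Lck controls and 3.76, 4.06 and 3.62 in Lck knockouts. The Vav groups overlapped and the Lck groups did not. Brip1 was at 5.33, 5.96 and 5.7 in Vav controls and 5.17, 5.55 and 4.82 in Vav knockouts. In the Lck groups it was at 4.22, 4.07 and 4.56 in controls and 5.4, 5.6 and 5.5 in knockouts. Its Lck knockouts lay within the range of the Vav controls, and every Lck control lay below every Vav control. The level of chromosome 15 differed between the effects by 0.27, the exact permutation test giving p = 0.1.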

How the results depend on the processing

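No difference changed sign under the alternatives run. Of the 68 named genes with a called difference, 45 kept the call in every fit with 1 library left out in which they were tested, and 23 without Lck knockout replicates 2 and 3. A pseudocount of 0.1 gave 107 genes lower by 1 or more. The filter in both tables left 43 genes higher by 1 or more, and a mean of 5 FPKM left 123 higher, 86 lower, and 23 and 26 by 1 or more, fewer genes being tested. Array weights gave 433 higher and 437 lower, and leaving out the genes of chromosome 15 gave 167 higher. A term for inferred sex, added after seeing the data, gave 281 higher and 245 lower. Of these, 420 were shared with the main fit, and 62 of the 68 named calls were kept. Without Lck knockout replicates 2 and 3 there were 63 higher and 44 lower, 39 and 21 by 1 or more. Leaving out 1 library gave 145 to 240 higher, 109 to 279 lower, 48 to 87 higher by 1 or more and 42 to 76 lower by 1 or more, and a chromosome 15 level difference of 0.26 to 0.28. The count higher fell by more than 1.5 times without Vav control replicates 2 (151) or 3 (154), Vav knockout replicate 3 (145) or Lck control replicate 1 (158), and the count lower without Vav control replicates 2 (109) or 3 (113), Lck control replicates 1 (124), 2 (138) or 3 (124) or Lck knockout replicate 2 (129). Genes higher by 1 or more fell to 59, 48 and 52 without Vav knockout replicates 1, 2 and 3, each of which also takes genes out of the filter. The cause of the other shifts was not tested. Scaling kept the share of higher calls between 54.3% and 60.5%. The Lck libraries were shallower than the Vav libraries, and what depth adds to or takes from the calls was not tested.

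With the replicate number as a block, 123 genes were higher and 88 lower. Numbers did not pair the libraries: same-numbered controls and knockouts deviated together with correlations of 0.0161, -0.0797 and 0.0863 in the Vav table and 0.168, -0.0117 and 0.0307 in the Lck table, and not every library correlated best with its own number.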
